A study of Mus musculus with 4 samples.

Results

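The regions described here are the accessible sites nearest the centromere on mouse chromosomes 12, 15, 16, 18 and 19, the chromosomes on which ribosomal DNA (rDNA) repeats are usually placed. The 4 peak lists of the study were merged into 155908 regions wherever peaks overlapped by at least 1 bp. A region was taken as centromere-proximal when its midpoint lay below position 15000000 (15 Mb, mm10) on 1 of these 5 chromosomes. This gave 3805 regions, and the other 19728 regions of the same chromosomes served as the reference. The rule uses position alone and no measured value, although the windows were chosen with earlier results of these data known. The rDNA repeats themselves were not analysed here, and which chromosomes carry active repeats differs between mouse strains, while the strain was not given in the sources used here.

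Open chromatin had been mapped by ATAC-seq, where a transposase inserts adapters into accessible DNA, in pachytene spermatocytes isolated from mouse testes. Treated cells received the RNA polymerase I inhibitor BMH-21 at 2.5 µM for 12 h and control cells its vehicle DMSO, here called mock, with 2 libraries in each group. The libraries are stated to be biological replicates, but whether they came from separate or pooled animals is not, and the spread between them may in part be technical. The BMH-21 lists held 51234 and 55459 peaks and the mock lists 109230 and 117905, and read totals were not used here. No test over 2 against 2 libraries can give a p below 0.33. Shares are therefore given with exact Clopper-Pearson 95% intervals, and differences between shares with Newcombe 95% intervals, all of which cover counting error only and not variation between libraries.

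Mouse chromosomes have their centromere at one end, next to blocks of satellite repeats packed as heterochromatin. On the chromosomes that carry rDNA, the repeats lie beside this heterochromatin, and RNA polymerase I transcribes them into pre-rRNA, around which the nucleolus forms. BMH-21 intercalates into GC-rich DNA, stops transcription by RNA polymerase I and leads to breakdown of that enzyme. At pachytene, homologous chromosomes are paired along their length and their nucleoli lie close to the paired centromere ends. The first megabases of assembled sequence on these chromosomes are thus the unique DNA that lies nearest to the rDNA along the chromosome.

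The cell type given by the labels was checked against its markers by peaks no more than 1 kb from an end of the gene, here called gene-end peaks. Of 11 pachytene genes, 10 had a gene-end peak in all 4 libraries, among them the synaptonemal complex genes Sycp1 and Sycp3 and the meiotic transcription factor gene Mybl1, and the recombination gene Spo11 lacked one in a single BMH-21 library. Of 8 leukocyte markers, 1 had a peak in each BMH-21 library, against 6 and 7 in the mock libraries, and Ptprc, which encodes the pan-leukocyte protein CD45, had none in any library. The numbers with a peak were 5 and 5 in BMH-21 against 7 and 7 in mock libraries for 9 Sertoli cell markers, and 3 and 3 against 5 and 5 for 8 markers of Leydig and peritubular cells. For 8 round spermatid markers they were 2 and 2 against 4 and 5, and for 8 spermatogonial markers 4 and 5 against 6 and 6. Of the Sertoli cell markers, 2 had a peak in both mock libraries and neither BMH-21 library, and 1, Rhox5, had the reverse. The BMH-21 lists are shorter as a whole. A peak lay over 58.5 and 59.1% of all RefSeq promoters in BMH-21 libraries, against 67.4 and 67.9% in mock libraries. Whether the marker counts fell by more than this was not tested. Fewer open cells of a type and weaker opening per cell cannot be told apart in such bulk libraries. The part of these other cells in the results below was not tested.

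Promoters from the windows are printed as examples of sequence kept, lost or gained in the peak lists. Each is given 5′ to 3′ on its own strand, from 250 bases before to 50 bases after the annotated start of transcription (RefSeq, GRCm38.p6), with CG dinucleotides in capitals. The first 2 belong to genes with a promoter peak in all 4 libraries. Rrn3 (chr16:13780449-13780748, plus strand) encodes the factor that makes RNA polymerase I competent to start, and Brix1 (chr15:10485888-10486187, minus strand) a protein of large ribosomal subunit assembly. The next 3 had a promoter peak in both mock libraries and in neither BMH-21 library. Prm1 (chr16:10796774-10797073, minus strand) and Prm2 (chr16:10792056-10792355, minus strand) encode the protamines that replace histones in sperm, and Ms4a4d (chr19:11536544-11536843, plus strand) a membrane protein of the MS4A family. The last, Bbs1 (chr19:4906578-4906877, minus strand), encodes a protein of ciliary transport and had a promoter peak in both BMH-21 libraries and in neither mock library.
Rrn3: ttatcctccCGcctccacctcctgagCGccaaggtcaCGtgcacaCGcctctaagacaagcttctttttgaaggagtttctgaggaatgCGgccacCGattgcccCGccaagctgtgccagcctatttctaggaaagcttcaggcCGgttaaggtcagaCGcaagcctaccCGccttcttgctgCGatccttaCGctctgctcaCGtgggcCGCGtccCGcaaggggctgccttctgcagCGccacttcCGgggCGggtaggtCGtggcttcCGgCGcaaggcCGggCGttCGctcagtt
Brix1: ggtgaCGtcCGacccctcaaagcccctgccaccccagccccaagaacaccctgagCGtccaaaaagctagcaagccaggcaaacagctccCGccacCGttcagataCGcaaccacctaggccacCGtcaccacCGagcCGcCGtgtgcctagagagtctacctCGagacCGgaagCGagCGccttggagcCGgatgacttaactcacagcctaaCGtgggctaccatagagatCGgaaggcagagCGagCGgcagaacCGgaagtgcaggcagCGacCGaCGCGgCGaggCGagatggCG
Prm1: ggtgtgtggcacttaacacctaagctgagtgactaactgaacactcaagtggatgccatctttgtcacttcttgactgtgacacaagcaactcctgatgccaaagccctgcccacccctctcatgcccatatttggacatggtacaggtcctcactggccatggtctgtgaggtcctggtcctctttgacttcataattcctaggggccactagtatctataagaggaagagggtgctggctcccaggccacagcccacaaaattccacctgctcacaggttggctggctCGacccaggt
Prm2: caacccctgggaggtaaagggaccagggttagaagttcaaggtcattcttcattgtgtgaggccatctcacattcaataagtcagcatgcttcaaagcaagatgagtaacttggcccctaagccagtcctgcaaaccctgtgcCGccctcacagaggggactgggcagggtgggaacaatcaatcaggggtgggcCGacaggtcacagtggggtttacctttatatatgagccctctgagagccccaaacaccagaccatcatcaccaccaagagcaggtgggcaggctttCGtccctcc
Ms4a4d: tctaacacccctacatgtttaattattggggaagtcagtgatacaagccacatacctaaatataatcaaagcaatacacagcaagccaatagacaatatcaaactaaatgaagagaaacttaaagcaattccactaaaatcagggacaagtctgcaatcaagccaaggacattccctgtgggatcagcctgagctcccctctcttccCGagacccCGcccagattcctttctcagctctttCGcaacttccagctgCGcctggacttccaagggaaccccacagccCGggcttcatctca
Bbs1: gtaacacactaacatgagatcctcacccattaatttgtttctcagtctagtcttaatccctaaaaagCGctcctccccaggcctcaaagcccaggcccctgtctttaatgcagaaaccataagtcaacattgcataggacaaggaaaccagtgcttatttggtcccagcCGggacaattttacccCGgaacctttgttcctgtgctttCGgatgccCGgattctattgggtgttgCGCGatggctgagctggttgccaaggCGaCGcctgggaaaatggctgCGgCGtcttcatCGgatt
The 2 kept promoters hold 25 (Rrn3) and 27 (Brix1) CG dinucleotides. The promoters absent after BMH-21 hold 1 (Prm1), 3 (Prm2) and 5 (Ms4a4d), and that of Bbs1 holds 12.

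In the lists at their full length, most centromere-proximal regions of mock cells had no peak after BMH-21. With each list cut to the length of the shortest, this held for 45.3% (42.2 to 48.3%) of the proximal regions held by both mock libraries. At that length the share was 2.42 points above that of the rest of the same chromosomes, with an interval that includes 0 (-0.873 to 5.74). The BMH-21 libraries held 963 and 1055 peaks in the windows and the mock libraries 2821 and 3017, a ratio of the means of 0.346. In the rest of the same chromosomes the BMH-21 libraries held 5187 and 5728 peaks and the mock libraries 13970 and 15093, a ratio of 0.376. In both zones the groups lay far apart and the replicates close together. The windows thus held 15.7 and 15.6% of the peaks of the 5 chromosomes in BMH-21 libraries and 16.8 and 16.7% in mock libraries. The means were 15.6 ± 0.0742% and 16.7 ± 0.1% (SD, n = 2 each), so that BMH-21 was lower by 1.12 percentage points without overlap (exact permutation test on the library labels, two-sided p = 0.33, the smallest that 2 against 2 libraries allow).

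The 3805 regions fell mainly into a few patterns of presence. A peak in all 4 libraries marked 616 regions (16.2%), and 101 (2.65%) had one in each BMH-21 library but in no mock library and are called BMH-21-only. Both mock libraries and neither BMH-21 library held 1479 regions (38.9%), here called mock-only. A single library held 1356 regions, of which 82 and 129 belonged to the BMH-21 libraries and 482 and 663 to the mock libraries. The remaining patterns took few regions, with 191 held by any 3 libraries. Absence means that the signal did not reach the threshold of the authors' peak caller, and it does not show that the chromatin was closed.

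Measured on the regions that replicates shared, loss near the centromere was close to that along the rest of these chromosomes. Of 2239 centromere-proximal regions held by both mock libraries, 1479 were mock-only (66.1%, 95% interval 64.1 to 68.0%), against 6924 of 10747 in the rest (64.4%, 63.5 to 65.3%). Over all chromosomes of the series, 56% of such regions were mock-only, and over the autosomes alone 63.7% (44738 of 70241). The difference between the zones was 1.63 percentage points with an interval of -0.553 to 3.76, which includes 0. Regions of the rest with the same annotation and the same strength, taken as 10 classes of the mean fold percentile in the mock lists, gave an expected share of 65.8%, and the matched difference was 0.238 points. In single pairs of libraries, 73.9 to 75.5% of the proximal regions of a mock library had no peak in a BMH-21 library, against 73.2 to 75.6% in the rest. Between replicates the figure was 18.9 to 23.8% for BMH-21 and 18.99 to 24.6% for mock libraries in the windows.

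Gains were rarer near the centromere than elsewhere on the same chromosomes. Of 764 proximal regions held by both BMH-21 libraries, 101 were BMH-21-only (13.2%, 10.9 to 15.8%), against 769 of 4097 in the rest (18.77%, 17.6 to 20%). The share over all chromosomes of the series was 17.3%, and over the autosomes 19.5%. The difference was -5.55 points (-8.08 to -2.71), and -3.81 points against an expected 17.0% after matching on strength and annotation, a comparison added after the data were seen. In single pairs, 22.9 to 28.0% of the proximal regions of a BMH-21 library had no peak in a mock library. In the rest this was 28.3 to 32.4%. The ranges did not overlap but nearly met, and the 4 pairs draw on the same 4 libraries and are not independent.

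The first 15 Mb of the other 14 autosomes were set beside these windows to see whether rDNA-bearing chromosomes stood apart. Of 4143 such regions held by both mock libraries, 2932 were mock-only (70.8%), which exceeded the rest of those chromosomes by 7.88 points (6.42 to 9.30) and by 8.07 points after matching. The mock-only share of the windows on chromosomes 12, 15, 16, 18 and 19 was thus 4.71 points below that of the other autosomes (-7.12 to -2.33). Without chromosome 19 the share of the windows was 69.2% (66.7 to 71.6%), nearer the 70.8% of the other autosomes. By kind of region the difference was 0.860 points at gene ends (-3.66 to 5.42), -0.865 elsewhere in genes (-4.10 to 2.27) and -4.29 between genes (-8.20 to -0.731). Gene ends made up 731 of the 2239 regions on the rDNA-bearing chromosomes and 1072 of the 4143 on the others. The BMH-21-only share was lower near the centromere there too, with 17.5% against 19.9% in the rest, a difference of -2.43 points (-4.53 to -0.132). Peaks near the centromere of the other 14 autosomes made up 5.42 and 5.38% of their peaks in BMH-21 libraries and 7.34 and 7.48% in mock libraries, with no overlap of the groups (exact permutation p = 0.33). On those chromosomes the ratio of BMH-21 to mock peaks was 0.287 near the centromere, against 0.346 in the windows of the rDNA-bearing chromosomes. The difference between the 2 kinds of chromosome was not tested over chromosomes, which all come from the same 4 libraries.

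The 5 chromosomes differed in the mock-only share and were alike in the direction of the BMH-21-only share. On chromosome 16, 344 of 485 proximal regions were mock-only (70.9%, 66.7 to 74.9%), against 60.3% in the rest, a matched difference of 7.23 points. On chromosome 15 it was 208 of 296 (70.3%) against 65.3%, a matched difference of 6.95 points, and on chromosome 18 189 of 277 (68.2%) against 64.1%, a matched difference of 4.95 points. These 3 lay above the rest of their chromosome. On chromosome 12 the share was 66.7% (226 of 339) against 67.4% in the rest, a matched difference of -3.09 points. On chromosome 19 it was 60.8% (512 of 842) against 62.3%, a matched difference of -3.73 points. The window of chromosome 19 is rich in genes: 44.3% of its regions held by both mock libraries were gene ends, against 20.3 to 31.8% in the other 4 windows. It also supplied 842 of the 2239 regions, and without it the difference between proximal and other regions was 4.47 points (1.82 to 7.03). The BMH-21-only share was lower in the window than in the rest on all 5 chromosomes. It was 12.6% against 18.97% on chromosome 12, 12.3% against 18.4% on 15, 15.8% against 18% on 16, 12.0% against 20.6% on 18 and 12.8% against 17.8% on 19. On the other autosomes it was lower in 11 of 14.

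**Figure D1:**
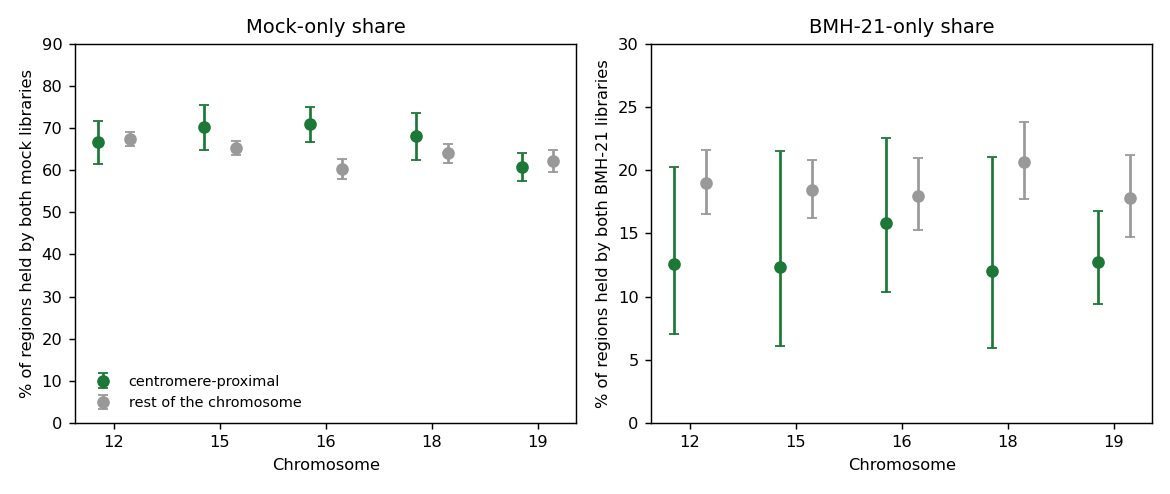
Share of regions that were mock-only (left, % of regions held by both mock libraries) and BMH-21-only (right, % of regions held by both BMH-21 libraries) in the centromere-proximal window (green) and in the rest of the same chromosome (grey). Bars are exact 95% intervals for counting error. On the left green lies above grey on chromosomes 15, 16 and 18, and on the right below grey on all 5.

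The kind of region separated kept from lost sites more than the zone did. A gene-end region lies no more than 1 kb from an end of an annotated gene. Of regions held by both mock libraries, 277 of 731 gene ends (37.9%), 791 of 1016 regions elsewhere in genes (77.9%) and 411 of 492 intergenic regions (83.5%) were mock-only in the windows. In the rest the shares were 35.0, 76.9 and 76.3%, in the same order. Only for intergenic regions did the interval of the difference leave out 0, at 7.19 points (3.30 to 10.7), and it included 0 when all lists were cut to equal length (-0.386 to 14.6). On the other 14 autosomes the same difference was 11.6 points, 87.8% against 76.3%. BMH-21-only regions made up 17 of 444 gene ends (3.83%), 51 of 216 regions elsewhere in genes (23.6%) and 33 of 104 intergenic regions (31.7%) held by both BMH-21 libraries. In the rest these shares were 6.73, 28.98 and 33.7%. The difference was -2.90 points at gene ends (-4.74 to -0.465), -5.37 elsewhere in genes (-11.2 to 1.21) and -1.93 between genes (-10.7 to 8.04), and the interval left out 0 only at gene ends. On the other 14 autosomes the gene-end difference was alike, at -2.62 points (-4.18 to -0.556). In the windows, gene ends accounted for 16.8% of the BMH-21-only, 18.7% of the mock-only and 67.4% of the regions in all 4 libraries. The classes also differed in width, with medians of 337 bp for BMH-21-only, 431 bp for mock-only and 963.5 bp for regions in all 4 libraries.

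Weak regions were lost far more often than strong ones. The fold of a peak is the authors' own value, the enrichment at its summit over the surroundings in that library, and it is used here for ranks and descriptions inside 1 list. In the weakest of the 10 strength classes 242 of 281 proximal regions were mock-only (86.1%), in the strongest 44 of 248 (17.7%). The rest of the chromosomes gave 85.4 and 18.4%. Median folds of the mock-only regions were 3.94 and 4 in the mock libraries. BMH-21-only regions had medians of 4.53 and 4.89 in the BMH-21 libraries. Regions in all 4 libraries had medians of 5.95 and 6.17 in BMH-21 and 6.13 and 6.40 in mock libraries. Kept proximal regions stood slightly lower in each list than kept regions of the rest, with median fold percentiles of 72.3 and 73.3 against 76.4 and 78.2 in BMH-21 libraries, and 79.1 and 81.0 against 82.0 and 82.9 in mock libraries.

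Along the window the mock-only share changed little with distance from the centromere end. It was 65.8% from 3 to 6 Mb, 65.1% from 6 to 9 Mb, 64.8% from 9 to 12 Mb and 69.7% from 12 to 15 Mb, and 65.1% from 15 to 20 Mb, just outside the window. In bins of 1 Mb it ran between 61.7 and 73.2%, with the highest value in the first bin. The BMH-21-only share was 11.1% (33 of 298), 12.1% (23 of 190) and 10.6% (17 of 160) in the first 3 of these intervals. From 12 to 15 Mb it was 24.1% (28 of 116, 16.7 to 32.96%), and just outside, from 15 to 20 Mb, 12.7% (20 of 158, 7.91 to 18.9%). The low share of gains in the windows therefore came from the first 12 Mb and did not decline steadily toward the centromere.

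**Figure D2:**
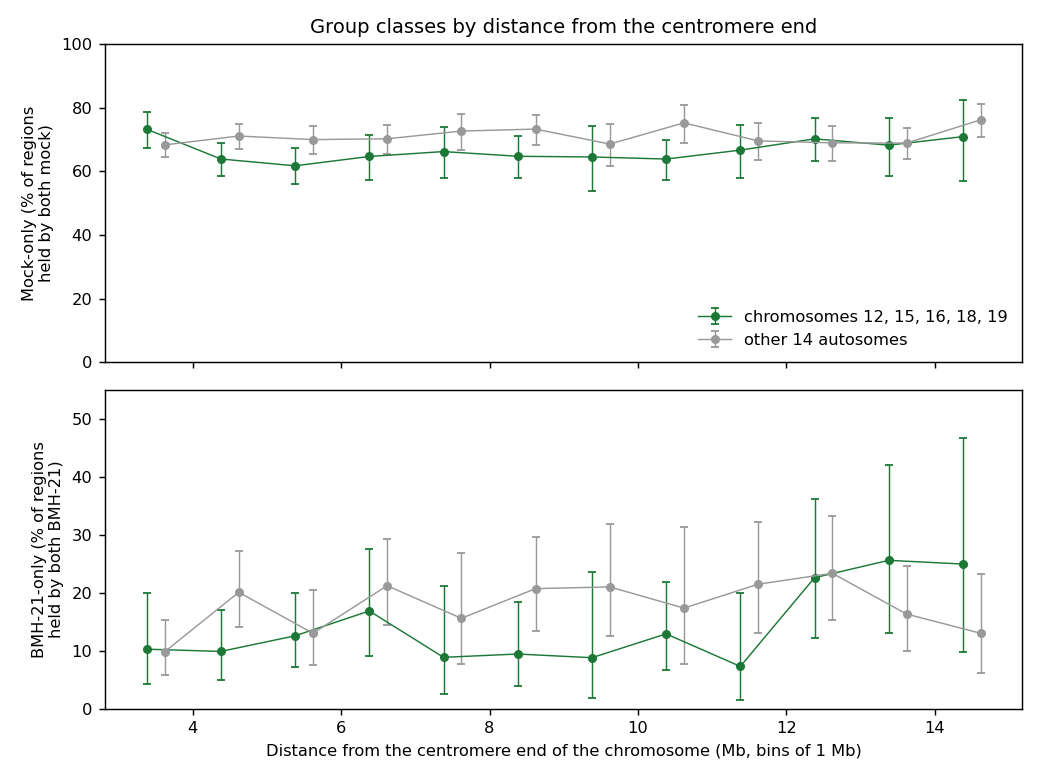
Mock-only share (top, % of regions held by both mock libraries) and BMH-21-only share (bottom, % of regions held by both BMH-21 libraries) in bins of 1 Mb from the centromere end, for chromosomes 12, 15, 16, 18 and 19 (green) and the other 14 autosomes (grey). Bars are exact 95% intervals for counting error. The green mock-only shares lie between 61.7 and 73.2% and the grey ones between 68.3 and 76.2%.

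At the very edge of the assembled sequence, most peaks were found in mock libraries alone. On each of the 5 chromosomes the first peak of both mock libraries lay nearer the centromere than the first peak of either BMH-21 library. On chromosome 12 the first peak started at 3234957 and 3234958 in BMH-21 and at 3001800 and 3001725 in mock libraries, and on chromosome 15 at 3303122 and 3303383 against 3094935 and 3079712. On chromosome 16 the positions were 3743461 and 3241178 in BMH-21 against 3016414 and 3016386 in mock libraries, and on chromosome 18 3256103 and 3270523 against 3008552 and 3008590. On chromosome 19 they were 3192701 and 3192688 in BMH-21 against 3148337 and 3079971 in mock libraries. The gap between the first BMH-21 and the first mock peak was 233, 223, 225, 248 and 113 kb on chromosomes 12, 15, 16, 18 and 19. On the other 14 autosomes the gap ran from -63.1 to 667 kb with a median of 41.9 kb, and it was above 0 on 11. The BMH-21 lists are shorter, so a later first peak is likelier in them on any chromosome, and the gap was not tested against that.

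The regions below 3.25 Mb, a limit chosen after the data were seen, show the same stretch in counts. A BMH-21 library had a peak at 7 of these 63 regions. There 32 of 36 regions held by both mock libraries were mock-only (88.9%, 73.9 to 96.9%), against 106 of 151 on the other 14 autosomes (70.2%, 62.2 to 77.4%). The 32 comprised 10 of 12 on chromosome 12, 3 of 3 on 15, 3 of 3 on 16, 12 of 12 on 18 and 4 of 6 on 19. All 25 of the intergenic ones were mock-only, and 69 of 79 on the other autosomes. Such a share was not particular to the edge. From 19 to 20 Mb on the same 5 chromosomes 35 of 39 regions held by both mock libraries were mock-only (89.7%, 75.8 to 97.1%), with all 17 of the intergenic ones, and 4 of 68 regions had a BMH-21 peak. From 3.25 to 3.5 Mb the share was 69.7% (46 of 66), near that of the window as a whole. Without the regions below 3.5 Mb the mock-only share of the windows was 65.6%, close to the 66.1% with them.

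Most of the lost regions below 3.25 Mb, 25 of 32, lay between genes. On chromosome 18 a peak at 3008552 to 3008905 had folds of 7.07 and 6.55 in mock libraries, and the nearest protein-coding gene was Vmn1r238, a vomeronasal receptor gene, 114 kb away. On chromosome 16 the first mock region, 3016386 to 3017159, had folds of 7.76 and 9.22 in mock libraries and lay 576 kb from the olfactory receptor gene Olfr161. On chromosome 12 the first mock region, 3001725 to 3002033, had folds of 4.51 and 4.70. On chromosome 15 the first region of both mock libraries, 3172486 to 3173001, lay between genes, 98.0 kb from Selenop, with folds of 3.97 and 3.95. On chromosome 19 it lay within the annotated gene Gm42068, at 3148337 to 3148732, with folds of 4.51 and 3.99. The first region held by both BMH-21 libraries lay at the end of Rab10os on chromosome 12, of Ccdc152 on 15 and of the zinc finger gene Zfp263 on 16. On chromosome 18 it lay within Crem, the gene of a transcription factor of postmeiotic germ cells, and on 19 within 1700030N03Rik. These 5 regions were held by both mock libraries as well, with BMH-21 folds of 3.75 to 9.53 and mock folds of 3.58 to 11.2.

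**Figure D3:**
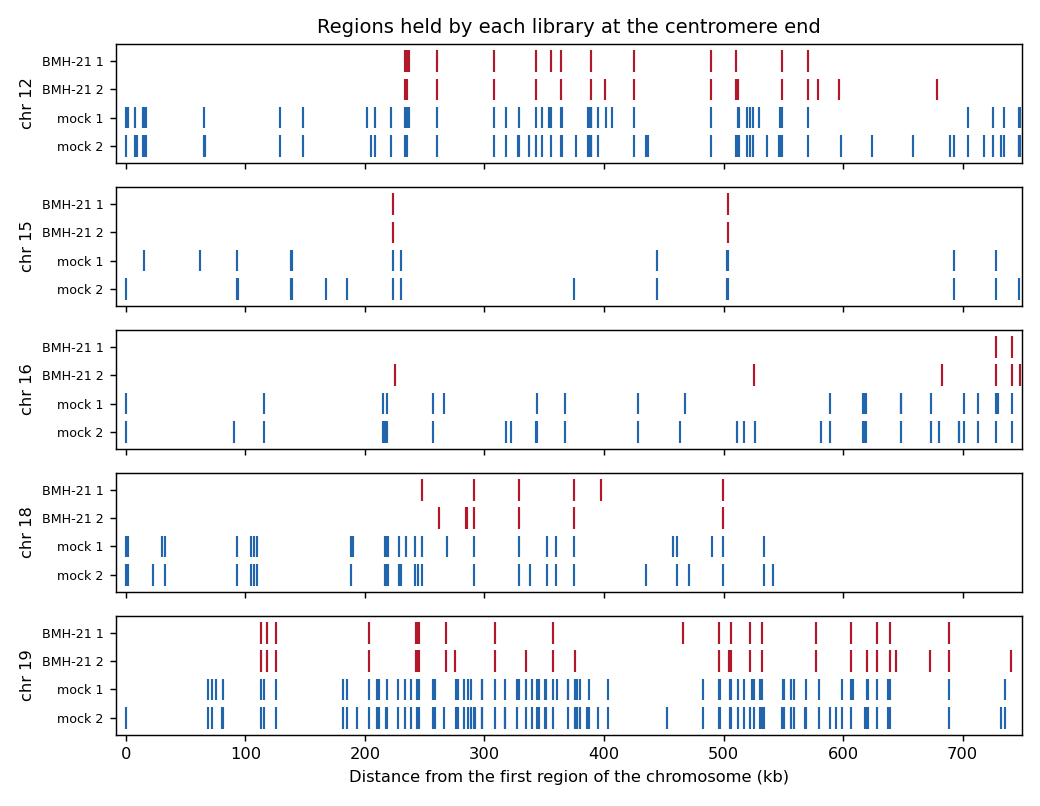
Position of each region held by each library in the first 750 kb of chromosomes 12, 15, 16, 18 and 19, as distance in kb from the first region of the chromosome. The upper 2 rows of each panel are the BMH-21 libraries (red) and the lower 2 the mock libraries (blue), and each tick is 1 region. The red rows begin to the right of the blue rows on every chromosome.

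Some lost regions followed each other in rows. Among regions held by both mock libraries, a row of at least 10 successive mock-only regions occurred 13 times in the windows and took in 166 regions (11.2% of the mock-only ones), against 79 rows with 1037 regions (15.0%) in the rest. How many such rows the mock-only share alone would give was not tested. Regions not held by both mock libraries were passed over, so a row can contain a BMH-21 peak. The longest row in the windows ran over 19 regions on chromosome 15, from 8204078 to 8315841, where 2 of all 27 regions had one. It covers part of Cplane1, a gene of cilium assembly, and of Nipbl, the gene of the factor that loads cohesin. The Nipbl gene ends themselves had peaks in all 4 libraries, with folds of 5.69 and 4.27 in BMH-21 and 4.33 and 4.52 in mock libraries. A further 2 rows of 15 regions lay on chromosome 16, from 3016386 to 3729601 over Olfr161 and Mefv, and from 11574033 to 11843679 over Snx29 and Cpped1. A row of 14 on chromosome 19, from 12866856 to 14398687, crosses a cluster of olfactory receptor genes. The edges of chromosomes 18 (13 regions, 3008552 to 3250435) and 12 (10 regions, 3001725 to 3223637) formed rows in which no region had a BMH-21 peak.

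The strongest lost regions lay mostly away from gene ends. On chromosome 15 a region between genes at 13383138 to 13383964 had folds of 12.8 and 12.9 in mock libraries, and another within Spef2, a sperm tail gene, at 9737444 to 9738349 had 12.0 and 12.5. Within Grin2a, a glutamate receptor gene, chromosome 16 held one at 9894549 to 9895323 with 13.0 and 10.9. On chromosome 12, regions between genes at 9914318 to 9915073 (folds 10.4 and 12.1) and within the coactivator gene Ncoa1 at 4430797 to 4431435 (12.0 and 10.1) led, and on chromosome 19 the region at the end of Slc22a29 at 8251917 to 8253059 (11.6 and 13.1). None of these 6 had a BMH-21 peak, although their folds rank near the top of the mock lists.

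The strongest gained regions lay away from gene ends too. On chromosome 18 a region between genes at 14525965 to 14526705, 99.3 kb from Ss18, had folds of 10.1 and 10.6 in BMH-21 libraries. On chromosome 16 one at 13528449 to 13529210, 9.13 kb from Parn, had 9.01 and 9.40, and on chromosome 15 one at 5252690 to 5253234 had 8.42 and 9.23. Within Macrod1 and Flrt1 on chromosome 19, a region at 7143597 to 7144529 had 8.49 and 8.61. On chromosome 12 the strongest gain, at 8444819 to 8445135, had only 5.81 and 6.33.

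The strongest kept regions were gene ends. The region at the neighbouring genes Nt5c1b and Rdh14 on chromosome 12 (10390587 to 10391444) had folds of 10.8 and 11.6 in BMH-21 and 12.4 and 13.0 in mock libraries. The region at Epc1, a gene of a histone acetyltransferase complex, on chromosome 18 (6515942 to 6516655) had 12.6 and 13.8 in BMH-21 and 15.4 and 15.2 in mock libraries. At an end of Spef2 on chromosome 15 (9748439 to 9749255) the folds were 12.2 and 12.4 in BMH-21 and 12.3 and 11.9 in mock libraries, although the strong site inside that gene was mock-only. At Cpped1 on chromosome 16 (11908535 to 11909634) they were 12.8 and 11.7 in BMH-21 and 14.0 and 15.8 in mock libraries. At Ms4a13 on chromosome 19 (11196223 to 11196978) they were 11.6 and 14.2 in BMH-21 and 14.9 and 16.03 in mock libraries.

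Most genes of the windows kept an open end. The windows hold 622 protein-coding genes, of which 358 are on chromosome 19, 99 on 16, 62 on 15, 52 on 18 and 51 on 12. A gene-end peak was present in all 4 libraries at 400 genes and in none at 139. Of 407 genes with a peak in both BMH-21 libraries, 5 were BMH-21-only (1.23%), near the 1.29% over all autosomal protein-coding genes. Of 463 with a peak in both mock libraries, 50 were mock-only (10.8%, 8.12 to 14.0%). Over all autosomal protein-coding genes this share was 11.7%, in the rest of the 5 chromosomes 12.2% and near the centromere of the other 14 autosomes 15.4%. By chromosome it was 16 of 91 on 16 (17.6%), 25 of 245 on 19 (10.2%), 5 of 41 on 15 (12.2%), 2 of 40 on 18 and 2 of 46 on 12.

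The 5 mock-only genes of highest rank were Slc22a29 (folds 11.6 and 13.1), a gene of the organic anion transporter family, Ms4a4d (9.39 and 10.2), Egflam (8.62 and 8.26), the gene of the matrix protein pikachurin, Kcns3 (8.06 and 8.32), a modulatory potassium channel subunit, and Adamts12 (7.76 and 6.47), a secreted protease. Their mock folds lay in the upper part of the mock lists and they had no gene-end peak in either BMH-21 library. The 5 BMH-21-only genes were Ss18 (5.995 and 6.19), a subunit of the BAF chromatin remodelling complex, Pga5 (5.21 and 5.90), a pepsinogen, 4921524L21Rik (5.29 and 5.26), Efcab1 (4.40 and 4.89), a calcium-binding protein of motile cilia, and Bbs1 (3.65 and 3.25). None of these folds reached those of the strongest gained regions on the same chromosomes.

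The gene lists are read against all autosomal protein-coding genes whose ends both mock libraries held. Of these 14371 genes, 12125 (84.4%) had a gene-end peak in all 4 libraries and 11.7% were mock-only. No list was tested against these shares. Of 9 genes of pre-rRNA transcription and ribosome assembly, 8 had a gene-end peak in all 4 libraries, which are all 8 that had one in both mock libraries, and Riok3 had none in any. Rrn3 had folds of 8.44 and 9.07 in BMH-21 and 9.62 and 10.3 in mock libraries. Brix1, whose promoter peak is shared with the neighbouring checkpoint gene Rad1, had 7.41 and 6.98 in BMH-21 and 8.38 and 8.94 in mock libraries. Snhg1, a host gene of small nucleolar RNAs, had 5.29 and 5.32 in BMH-21 and 12.7 and 10.5 in mock libraries. Folds are not normalised between libraries, so these values show presence and not change. The same held for 21 of 22 genes of translation, splicing and respiration, where Fth1 had no gene-end peak in any library. Gene ends are the outermost annotated ones, and the Fth1 promoter with its start at 9982646 had a peak in all 4 libraries and holds 27 CG dinucleotides.

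Of 19 genes of meiosis and DNA repair, 17 had a gene-end peak in all 4 libraries, Pold4 in 3 and Rbbp8 in none. Slx4 and Mus81 are among the 17. No library had a peak over the Slx4 promoter starting at 4001678, and the Mus81 promoter starting at 5488379 had one in some libraries only. Psma8, the gene of a testis-specific proteasome subunit, had folds of 8.76 and 8.62 in BMH-21 and 13.5 and 13.7 in mock libraries. Majin, which tethers meiotic telomeres to the nuclear envelope, had 5.89 and 6.90 in BMH-21 and 10.1 and 10.7 in mock libraries. Incenp, the gene of a subunit of the chromosomal passenger complex, had 7.73 and 6.59 in BMH-21 and 9.68 and 10.0 in mock libraries. Of 15 chromatin regulators, 12 were kept, Ss18 was BMH-21-only, and Dnmt3a and Usp7 had no peak at their outermost gene ends in any library. The Usp7 promoter with its start at 8738342 had a peak in all 4 libraries. Of the Dnmt3a promoters, the one starting at 3891744 had a peak in all 4 and those starting at 3806980 and 3807160 were mock-only.

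Of 13 spermiogenesis genes, both mock libraries held 11, which comprised 8 with a peak in all 4 libraries and 3 mock-only ones, the protamine cluster genes Prm1 (3.83 and 5.00 in mock libraries), Prm2 and Prm3. Prm2 and Prm3 share a single peak, with folds of 3.97 and 3.72 in mock libraries, so the 3 genes rest on 2 peaks. Tnp2 in the same cluster had a peak in 1 mock library alone. Among the kept genes, Cabyr, a sperm tail calcium-binding protein, had folds of 12.9 and 15.1 in BMH-21 and 11.4 and 9.74 in mock libraries. Nt5c1b counts as kept through the region it shares with Rdh14, while no library had a peak over its annotated promoters. The Catsperz promoter starting at 6925380, of another kept gene, had a peak in some libraries only. Round spermatid markers had fewer peaks in the BMH-21 libraries over the genome, and Prm1, Prm2 and Tnp2 are 3 of those 8 markers.

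Of 22 developmental and signalling genes, 10 had a gene-end peak in all 4 libraries, 9 showed another mix of libraries, and 3 were mock-only. The mock-only ones were Gata6 (3.08 and 3.13), Grin2a (4.49 and 4.92) and the splicing factor gene Rbfox1 (5.97 and 6.60). Greb1l, 1 of the 9 mixed genes, had a fold of 6.41 in the first BMH-21 library, no peak in the second, and 13.1 and 13.8 in mock libraries. Promoters can differ from these gene-end classes. The promoters of Apob, Osmr and Matn3, counted as kept, had a peak in all 4 libraries, while that of Pomc, also counted as kept, was mock-only. Of the mixed genes, Lifr had a promoter kept in all 4 libraries (start 7129572) and Cdh6 a mock-only one. No library had a peak over the Rbfox1 promoters starting at 5884793 and 7069835. Of 18 immune genes, 10 had no peak at their outermost gene ends, 5 had one in all 4 libraries and 3 were mock-only. The mock-only ones were the complement gene C7 (3.97 and 6.21) and the lymphocyte receptor genes Cd5 (3.73 and 3.998) and Cd6 (2.95 and 3.33). No library had a peak over the C7 promoter starting at 5063773. Dab2, counted without a gene-end peak, had a mock-only promoter starting at 6386748. The lists are small and the difference between them was not tested. Leukocyte markers had fewer peaks in BMH-21 libraries over the whole genome, and their part in the loss at immune genes was not tested.

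The windows of chromosomes 16 and 19 also contain large families of receptor-like genes. Of 65 olfactory receptor genes, 63 had no gene-end peak in any library and 2 had one in some libraries of a group only. Of 21 Ms4a genes, 16 had none, 3 were kept and 2 were mock-only, Ms4a15 (4.87 and 5.46) and Ms4a4d. The kept ones were Ms4a13, Ms4a19 (5.74 and 5.90 in BMH-21, 9.75 and 8.09 in mock libraries) and Ms4a20 (7.92 and 8.01 in BMH-21, 10.5 and 11.5 in mock libraries), which lie next to each other.

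Mock-only promoters of the windows were mostly poor in CG dinucleotides, as those of Prm1, Prm2 and Ms4a4d printed above, but ranged from 1 to 47. A mock-only promoter of Kcns3 held 32 and one of Egflam 22, both among the highest-ranked mock-only genes. Some mock-only promoters belong to genes with another promoter kept in all 4 libraries, as Dnmt3a. The sequence table used held 560 promoters of 462 protein-coding genes in the windows of chromosomes 12, 15, 16 and 19, and promoters of chromosome 18 were not used here. The median number of CG dinucleotides per 300 bases was 13.5 in 6 BMH-21-only, 7 in 44 mock-only, 23 in 322 kept promoters and 2 in 158 without a peak. Of 377 promoters overlapped by a peak in both mock libraries 44 were mock-only (11.7%), against 12.0% in the rest of these chromosomes and 11.4% over all autosomal promoters. With fewer than 10 CG dinucleotides 28 of 52 were mock-only (53.8%, 39.5 to 67.8%), with 10 to 19 it was 9 of 109 (8.26%), and with 20 or more 7 of 216 (3.24%). In the rest the shares were 47.0, 15.8 and 5.11% in the same order. A total of 6 promoters were BMH-21-only, of which those of Pcnx3 and Map3k11 overlap and are not separate sites. Over all autosomal promoters held by both BMH-21 libraries the share was 1.99%. The number of window promoters held by both is not given here, so the 6 cannot be set against this share.

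**Figure D4:**
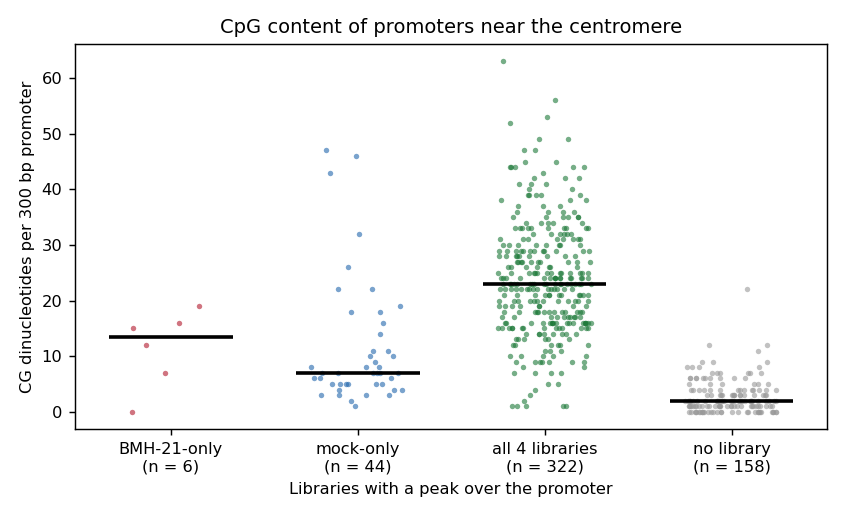
Number of CG dinucleotides in each 300 bp promoter of the centromere-proximal windows of chromosomes 12, 15, 16 and 19, by the libraries with a peak over it. Each point is 1 promoter and the black lines are medians, which are 13.5 for BMH-21-only, 7 for mock-only, 23 for all 4 libraries and 2 for no library.

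Short motifs were counted in the same promoters on both strands. The ETS motif CCGGAAG was found in 24.8% of kept and 9.09% of the 44 mock-only promoters of the windows. These classes gave 20.002 and 4.52% over all autosomes, and all autosomal promoters, with or without a peak, gave 11.9%. Rrn3 and Brix1 hold 2 each. The GC box GGGCGG was found in 69.3% of kept and 61.4% of mock-only promoters, against 71.9 and 47.1% over all autosomes, and in 47.0% of all. CCAAT was found in 43.5% of kept and 25% of mock-only promoters, against 37.4 and 29.8% of these classes over all autosomes, and in 38.1% of all. The MYB motif AACNG was found in 78.9% of kept and 77.3% of mock-only promoters, against 75.7 and 75.4% over all autosomes, and in 78.7% of all. The cAMP response element TGACGTCA occurred in 4.04% of kept and in none of the 44 mock-only promoters. Over all autosomes the classes gave 3.69 and 0.777%, and all promoters 2.30%. The ETS motif, the GC box and the cAMP response element each contain CG, so their counts are not independent of the CG content.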

How the data were processed

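Peak lists of 4 ATAC-seq libraries were analysed, 2 of BMH-21 and 2 of mock pachytene spermatocytes. Per the submitters' processing notes, the tools were MACS2 2.1.0, deepTools, bedtools, Bowtie2 and fastp, and both mm39 and mm10 are listed as builds, with no role or order. The sources used here do not give caller settings, duplicate removal or transposase read shifts. The labels' extract protocol describes tagmentation, whereas an RNA kit appears in the design text. Each library has its own deposited list, so peaks were called per library. The deposited fold is a ratio within 1 library. The enrichment also has a deposited −log10 p and −log10 q (the smallest −log10 q was 2.01), and the deposited score is derived from the −log10 q. None is normalised between libraries. The depth per library is unknown beyond the number of peaks.

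Coordinates were taken as mm10 and are 1-based. Chromosome 1 peaks reach 195371813, and 58.5 to 67.9% of RefSeq GRCm38.p6 promoters held a peak as given, against 2.49 to 6.99% after a shift of 50000 bp.

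Peaks were merged at 1 bp of overlap with python 3.11.15, numpy 2.4.6 and pandas 2.3.3, and intervals were computed with scipy 1.17.1. Annotation classes were gene end (at most 1 kb from an end of a gene), elsewhere in a gene, and intergenic. Rows of lost regions have at least 10 members. The procedures were tested on simulated data. The windows, gene lists, markers and named items were chosen with earlier results of these data known. Named regions were, on each chromosome, up to 2 per class by mean fold percentile and those nearest the centromere end. Named genes were 5 BMH-21-only and 5 mock-only genes of highest percentile and up to 4 per list, and other names were chosen after their values were seen. Alternatives were a stricter threshold, equal list lengths, summit windows, 50% cover, other outer limits, leaving out each chromosome or library, 2 other ways of matching and a replicate block. The matched gain, the intergenic difference and the limits of 3.25 and 3.5 Mb were added after the data were seen. One kept region of chromosome 12 named by this rule is not reported here.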

Additional observations from a re-analysis of the deposited data

How the results depend on the processing

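The mock-only share of the windows, 66.1% in the report, depended on how peaks were counted. It was 45.3% with each list cut to the length of the shortest, 71.2% with peaks shortened to their summit and the 100 bp around it on both sides, 70.9% when a library had to cover 50% of a region, 69.2% without chromosome 19, and 69.2 to 72.6% without any 1 library. The cause was not tested, except that fewer libraries per class make the class easier to enter. The mock-only difference from the rest of the chromosomes was 4.47 points without chromosome 19 and -0.519 without chromosome 16, and 0.404 to 1.60 without any 1 library. Without chromosome 12 it was 2.57 points, with an interval that left out 0 (0.166 to 4.92), unlike that of the report. The matched difference was -1.80 points with an outer limit of 10 Mb, 3.83 without chromosome 19, 2.04 with strength taken from the −log10 q (0.0352 to 4.001, which leaves out 0), and -0.388 to 0.187 without any 1 library. The BMH-21-only difference stayed below 0 under all 16 alternatives (-7.51 to -3.85 points, and -6.40 to -3.85 without any 1 library), as did its matched form (-5.81 to -3.22). The intergenic mock-only difference stayed above 0 under 16 alternatives (5.14 to 9.56), although with equal list lengths its interval was -0.386 to 14.6. The share of peaks in the windows stayed lower in BMH-21 libraries under 16 alternatives (-1.75 to -0.414 points, and -1.19 to -1.05 without any 1 library). With the replicate block, in which libraries of the same number are pairs, it was -1.12 points (exact sign-flip permutation p = 0.5, the smallest possible with 2 pairs). The labels do not say that equal numbers mark a shared animal or day.

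The lists give no read depth. A region near the threshold of the caller can change class by chance, and the classes of weak regions are the least certain. With 2 libraries per group, none of the differences can be tested against the variation between preparations at a level below 0.33. Chromosomes share the same libraries and are not independent replicates. No genome sequence was used, so the content of repeats and the mappability of the first regions were not analysed here.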

Other observations

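The windows hold 23 annotated microRNA hairpins, of which 7 had a peak within 1 kb in all 4 libraries, 10 were mock-only, 1 had another mix of libraries and 5 had no peak. The mock-only ones were 55.6% of the 18 with a peak in both mock libraries, near the 53.5% over all autosomal hairpins (191 of 357). Mir484 was among the kept ones, with folds of 5.99 and 5.82 in BMH-21 and 8.12 and 7.55 in mock libraries. Mir193b on chromosome 16 was mock-only with folds of 7.02 and 7.27 in mock libraries, while its cluster partner Mir365-1 had no peak in any library. Mir192 and Mir194-2 on chromosome 19 shared a weak mock-only peak with folds of 2.47 and 2.61 in mock libraries.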
